A study of Mus musculus with 8 samples.

Results

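The *Serpina3* cluster is a tandem array of serpin genes on mouse chromosome 12, and 8 of its genes are described here. They are *Serpina3c*, *Serpina3f*, *Serpina3g*, *Serpina3h*, *Serpina3i*, *Serpina3k*, *Serpina3m* and *Serpina3n*, selected by symbol among the 55523 entries of the gene count table. The genes were proposed with the male to female comparison of these samples already known, so their differences between the sexes are given as descriptions, without p-values. RNA was sequenced from pituitary gonadotropes of the transgenic strain Ad4BP-BAC-EGFP, in which EGFP marks cells that use the regulatory sequence of *Nr5a1* (Ad4BP is another name of NR5A1). EGFP-expressing cells were sorted from 4 female and 4 male samples, and the transgene is shared by both groups. The age of the mice, and whether a sample is a single animal or a pool, are not given in the sources used here, so the errors and p-values measure only the spread between these samples. Male replicate 1 was left out of the group comparison because the study left it out, and its values are shown apart.

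Serpins are inhibitors that trap a protease through an exposed loop near their carboxyl end, the reactive centre loop, and the sequence of this loop sets which protease is caught. Human carries a single *SERPINA3* gene, which encodes alpha-1-antichymotrypsin, an acute phase protein of liver and of reactive astrocytes. In rodents this gene was duplicated many times, and the copies differ most in the loop.

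In these gonadotropes, *Serpina3c* was the most abundant member in male replicates 2 to 4, at 57.8 ± 24 CPM (counts scaled to library depth, SD, n = 3), and a low-level gene in the females, at 2.07 ± 0.747 CPM (SD, n = 4). *Serpina3g* was higher in each male than in any female, by a smaller amount. *Serpina3n*, the mouse gene most often used as the counterpart of human *SERPINA3*, varied widely within each sex and was highest in male replicate 1. *Serpina3f* was near 1 CPM, *Serpina3h*, *Serpina3i* and *Serpina3m* were detected in some samples only, and *Serpina3k* had 0 counts in all 8 samples.

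In the GENCODE M21 annotation of GRCm38 (mm10), 14 *Serpina3* genes and pseudogenes span 301.606 kb of chromosome 12. The 8 members span 267.948 kb of it. *Serpina3c* (ENSMUSG00000066361.3, chr12:104146382-104153870) lies on the minus strand, and the other 7 members on the plus strand. *Serpina3f* (chr12:104214544-104221129), *Serpina3g* (chr12:104236245-104241939), *Serpina3h* (chr12:104247905-104253669) and *Serpina3i* (chr12:104263122-104269372) follow each other with no other *Serpina3* gene between them. *Serpina3h* is annotated as a transcribed unprocessed pseudogene and the other members as protein-coding. *Serpina3k* (chr12:104338486-104346144) and *Serpina3m* (chr12:104338486-104394257) share an annotated start, so the gene span of *Serpina3k* lies inside that of *Serpina3m*. *Serpina3n* (ENSMUSG00000021091.8, chr12:104406729-104414329) is the last gene of the array. The most abundant genes of the males, *Serpina3c*, *Serpina3g* and *Serpina3n*, lie near its start, its middle and its end.

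**Figure D1:**
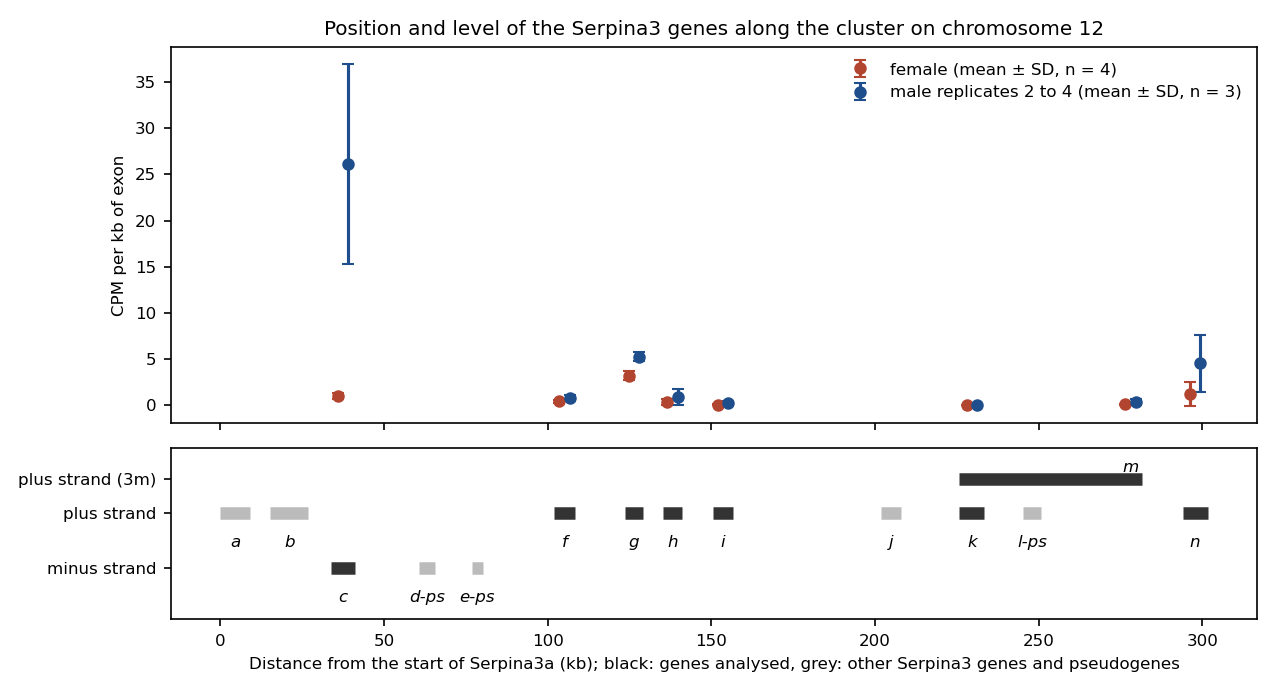
The lower panel draws the 14 *Serpina3* genes and pseudogenes by strand against the distance from the start of *Serpina3a* in kb, with members in black and *Serpina3m* on a row of its own. The upper panel gives the mean ± SD of CPM per kb of exon for males (replicates 2 to 4) and females, offset slightly from each gene's position, and *Serpina3c* stands highest in the males at 26.1 ± 10.8.

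The coding sequences of the copies are alike, which bears on how reads are assigned. Over the 21 pairs of the 7 protein-coding members, 80.2 to 91.7% of aligned coding bases were identical, with a median of 84.3%. The closest pairs were *Serpina3k* with *Serpina3m* at 91.7%, *Serpina3f* with *Serpina3i* at 91.2% and *Serpina3c* with *Serpina3m* at 89.5%. The stretch that encodes the reactive centre loop was less alike, at 55.1 to 76.0% over 15 pairs of 6 members, with a median of 65.3%. The loop stretches are shown because they are where the copies differ as inhibitors. They run from the conserved hinge codons at the 5′ end to the codons before the conserved phenylalanine motif, and capitals mark alignment columns that were not identical in all 6 members.
Serpina3c: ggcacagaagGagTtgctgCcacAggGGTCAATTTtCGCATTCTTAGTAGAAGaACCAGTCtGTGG
Serpina3m: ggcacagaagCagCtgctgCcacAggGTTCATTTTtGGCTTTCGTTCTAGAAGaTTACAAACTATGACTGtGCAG
Serpina3k: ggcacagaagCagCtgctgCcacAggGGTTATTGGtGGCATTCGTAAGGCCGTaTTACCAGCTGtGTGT
Serpina3n: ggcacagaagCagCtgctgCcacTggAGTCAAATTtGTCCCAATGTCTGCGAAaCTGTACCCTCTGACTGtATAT
Serpina3i: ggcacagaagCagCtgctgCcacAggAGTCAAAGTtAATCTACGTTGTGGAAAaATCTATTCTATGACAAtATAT
Serpina3f: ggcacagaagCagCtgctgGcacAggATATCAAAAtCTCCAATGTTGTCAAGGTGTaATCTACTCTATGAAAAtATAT
Of the 78 alignment columns, 25 were identical in all 6. The hinge codons at the start were nearly the same in each gene, and the codons after them differed in most columns. *Serpina3c* and *Serpina3n* shared 59.1% of the aligned loop bases against 85.5% of the whole coding sequence. The loop pattern was not found in the coding sequence that M21 gives for *Serpina3g*, so no loop is printed for it.

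Reads that match several copies may be divided between them or dropped. The libraries were sequenced as paired reads of 150 bases, and a window of 150 exonic bases of a member matched another M21 gene exactly only for *Serpina3k* and *Serpina3m*, at 0.262% and 0.331% of their windows, with each other. With windows of 50 bases, as for a shorter matching stretch of a read, all 8 members shared some, from 4.25% of windows for *Serpina3c* to 21.9% for *Serpina3h*. The share was 6.90% for *Serpina3n*, 10.6% for *Serpina3f* and 15.5% for *Serpina3g*. By default, featureCounts, the counting program that the paper names, leaves out reads that map to several places or overlap several genes. How the counts of assembled loci were made is not described, so whether such reads were left out here is not known. The low counts of *Serpina3h*, *Serpina3i* and *Serpina3m* and the 0 of *Serpina3k* are therefore uncertain. Because of this, the counts of the members were also summed, which removes the division between members but not the loss of reads.

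Libraries held from 18774578 to 31302588 counts, and 3 counts, the smallest level taken as measurable, corresponded to between 0.0921 and 0.146 CPM, computed like every CPM here from library sizes that edgeR adjusts by TMM (trimmed mean of M values). Floors and intervals cover counting error only, and they take the values as counts of reads. The sorted cells carried gonadotrope markers, with *Lhb* between 4139 and 9610 CPM in the 8 samples, but markers of other hormone cells were present too. In male replicate 1, *Nr5a1* was low at 16.3 CPM, while the remaining males had 584 to 801 CPM and the females 862 to 1266 CPM. In bulk RNA, fewer cells of a type and less RNA per cell cannot be told apart.

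*Serpina3c* had 49, 63, 59 and 30 counts in the females and 1891, 1818 and 669 counts in male replicates 2 to 4. These were 2.10, 3.07, 1.81 and 1.30 CPM in the females and 74.5, 68.6 and 30.4 CPM in the males. Male replicate 1 had 629 counts, or 27.5 CPM. The lowest male was well above the highest female whether or not male replicate 1 was counted, and male replicates 1 and 4 were similar to each other and below the other males. The log2 fold change, male over female, was 4.77 with a standard error of 0.43. In the order of fold changes it was rank 29 of the 20152 genes tested, counted from the gene with the largest male excess. Its level was at the 88.4 percentile of genes with a count in males and the 49.1 percentile in females, so the gene moved from the middle of the distribution to its upper part. Male replicate 1 was at 0.475 of the mean of the other males and 8.94 times the highest female.

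*Serpina3n*, which encodes an inhibitor of granzyme B and of leukocyte elastase and is induced by interleukin-6 type cytokines and glucocorticoids in several tissues, had a different profile. Its levels were 6.37, 0.732, 1.81 and 0.908 CPM in the females, from 149, 15, 59 and 21 counts. They were 15.6, 3.02 and 9.22 CPM in male replicates 2 to 4, from 396, 80 and 203 counts, and 40.3 CPM in male replicate 1, from 923 counts. Female replicate 1 was higher than male replicate 3, so the groups overlapped. Male replicate 1, which had the lowest *Serpina3c* of the males, had the highest *Serpina3n* of all 8 samples, 4.34 times the mean of the other males. The mean was 9.28 ± 6.29 CPM (SD, n = 3) in males and 2.46 ± 2.65 CPM (SD, n = 4) in females. The log2 fold change was 1.89 with a standard error of 0.85, and it was 2.98 without female replicate 1 and 2.79 with all 4 males, so its size rested on single samples.

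*Serpina3g*, also known as Spi2A, is an intracellular serpin of leukocytes that inhibits lysosomal cathepsins and is induced by interferon. Its levels were 6.12, 6.29, 8.26 and 6.01 CPM in the females and 12.2, 10.7 and 10.2 CPM in male replicates 2 to 4, with 11 CPM in male replicate 1. The groups did not overlap, with or without male replicate 1, and this was the steadiest member within each sex. The means were 11 ± 1.06 CPM (SD, n = 3) in males and 6.67 ± 1.06 CPM (SD, n = 4) in females. The log2 fold change was 0.69 with a standard error of 0.18, which placed *Serpina3g* at rank 2568 in the same order of fold changes. It was 0.48 when samples were scaled by library size alone, a scaling that moved the median of all genes to −0.24.

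*Serpina3f* and *Serpina3h* were the other members that passed the filter on low counts. *Serpina3f* was 1.11, 1.32, 0.583 and 0.735 CPM in the females, 1.30, 2.57 and 1.23 CPM in male replicates 2 to 4, with 1.0 CPM in male replicate 1. The groups overlapped, and male replicate 3 was the highest sample. The log2 fold change of *Serpina3f* was 0.82 with a standard error of 0.48, and 0.41 without male replicate 3. The *Serpina3h* pseudogene was 0, 0.244, 0.583 and 0.994 CPM in the females, 2.44, 0 and 1.27 CPM in male replicates 2 to 4, with 1.31 CPM in male replicate 1. Each sex had a sample with 0 counts, and the standard error of its log2 fold change of 1.39, at 1.51, was larger than the change itself.

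*Serpina3i*, *Serpina3m* and *Serpina3k* did not pass the filter and were not tested. *Serpina3i* had 5 counts in female replicate 3 and 0 in the other females, against 21, 0 and 12 counts in male replicates 2 to 4, with 25 in male replicate 1. *Serpina3m* had 11 counts in female replicate 3 and 0 in the other females, against 0, 19 and 21 counts in male replicates 2 to 4, with 46 in male replicate 1. For both genes male replicate 1 was the highest sample, and the only female with a count was female replicate 3, the most deeply sequenced library. *Serpina3k*, known in liver as contrapsin, was not detected, which allows a level of up to 0.0921 to 0.146 CPM depending on the sample.

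**Figure D2:**
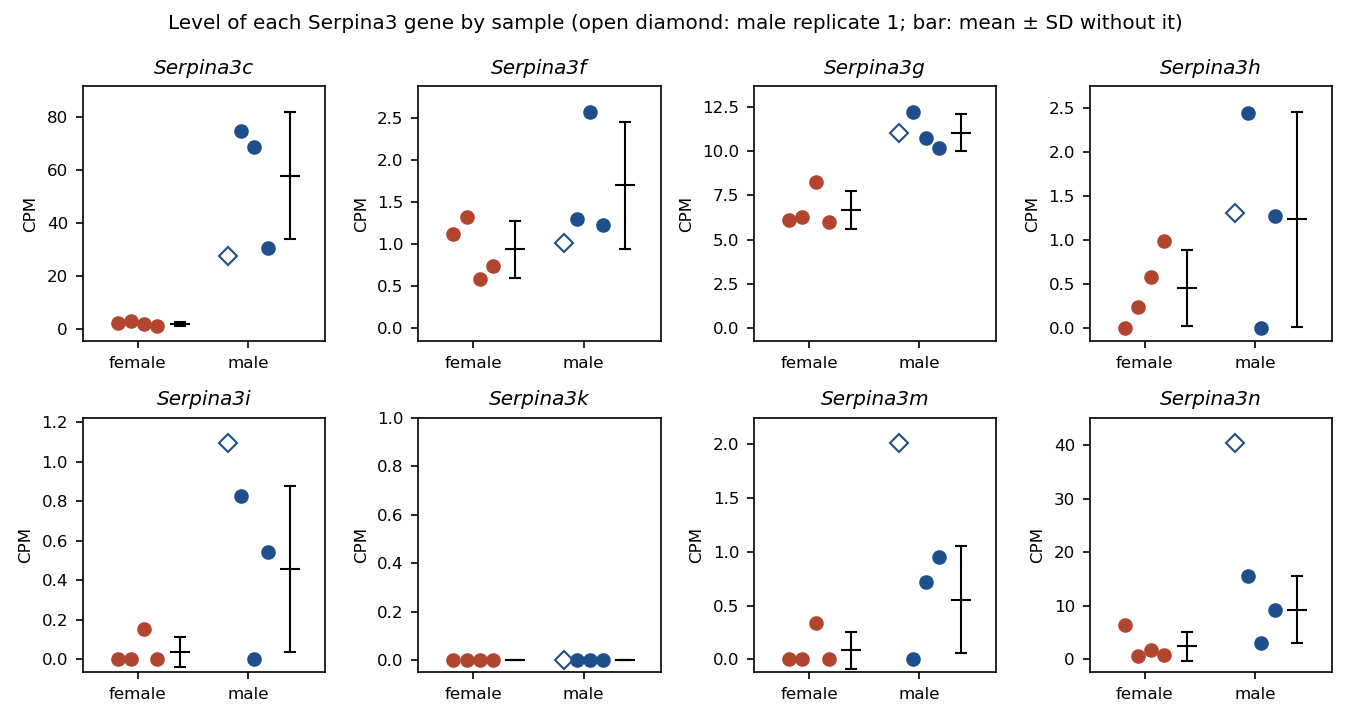
Each panel gives the CPM of a member in every sample on a linear axis of its own, with females in red, males in blue, male replicate 1 as an open diamond, and the mean ± SD of 4 females or of male replicates 2 to 4 as a bar. For *Serpina3c* and *Serpina3g* all males lie above all females, whereas for *Serpina3n* the open diamond is the highest point at 40.3 CPM.

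Of the 20152 genes tested with edgeR, 471, or 2.34%, were called between the sexes at an adjusted p under 0.05, with 198, or 0.983%, higher in males and 273, or 1.35%, higher in females. Among the 5 members tested, *Serpina3c* was the only one called, higher in males. Males did not overlap females, with males higher, for 2 of the 5 members, *Serpina3c* and *Serpina3g*, and for 11.5% of all genes tested. The log2 fold change was above 0 in 5 of 5 members, with a median of 1.39, and in 47.9% of all genes, with a median of −0.03. Because this contrast was known when the genes were chosen, nothing is read from these counts.

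The summed counts of the 8 members were 367, 239, 441 and 230 in the females and 2713, 2269 and 1184 in male replicates 2 to 4, with 1928 in male replicate 1. In CPM, the sum was 15.7, 11.7, 13.5 and 9.94 in the females, 106.9, 85.7 and 53.8 in male replicates 2 to 4, with 84.2 in male replicate 1. The sum therefore separated the sexes in all 8 samples, and male replicate 1 was at 1.03 times the mean of the other males, unlike its *Serpina3c* and *Serpina3n* levels taken alone. The means were 82.1 ± 26.7 CPM (SD, n = 3) and 12.7 ± 2.47 CPM (SD, n = 4), and the log2 fold change was 2.66 with a standard error of 0.27.

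The make-up of the sum differed between the sexes. *Serpina3c* was 69.7, 80.1 and 56.5% of the summed counts in male replicates 2 to 4 and between 13 and 26.4% in the females. *Serpina3g* was the largest share in female replicates 2 to 4, at 54.0 to 61.0%, and was 14.3 ± 4.05% (SD, n = 3) in the males. In male replicate 1, *Serpina3n* was the largest share at 47.9% (95% exact binomial interval 45.6 to 50.1%), followed by *Serpina3c* at 32.6% (30.5 to 34.8%). Female replicate 1 was the sample nearest to it in this respect, with *Serpina3n* at 40.6% (35.5 to 45.8%), while the other females had 6.28 to 13.4%.

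**Figure D3:**
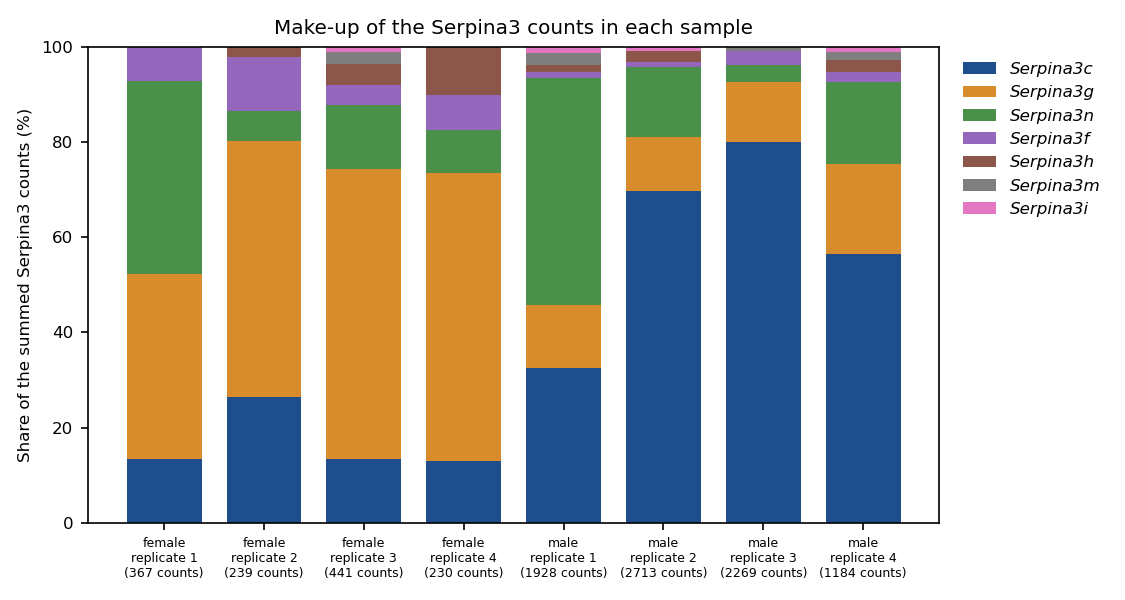
Stacked bars give the share of each member in the summed *Serpina3* counts of each sample, in percent, with the summed count under each bar. *Serpina3c* is the largest share in male replicates 2 to 4, *Serpina3g* in female replicates 2 to 4, and *Serpina3n* in female replicate 1 and male replicate 1.

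Levels of different genes were compared per kb of exon, using M21 exonic lengths from 1434 bases for *Serpina3h* to 2290 bases for *Serpina3f*. *Serpina3c*, *Serpina3g*, *Serpina3h*, *Serpina3i* and *Serpina3n* were counted as assembled loci whose coordinates are not given in the sources used here, so the counted lengths, and with them the levels per kb and their order, may differ. In male replicates 2 to 4, *Serpina3c* led at 26.1 ± 10.8 CPM per kb (SD, n = 3), followed by *Serpina3g* at 5.24 ± 0.502 and *Serpina3n* at 4.50 ± 3.05. The step from *Serpina3c* to *Serpina3g* was larger than the SD of either gene, and that from *Serpina3g* to *Serpina3n* was not. Next came *Serpina3h* at 0.863 ± 0.852 CPM per kb and *Serpina3f* at 0.741 ± 0.329, which did not differ beyond their spread. *Serpina3m* was at 0.324 ± 0.289 CPM per kb and *Serpina3i* at 0.206 ± 0.189, again within their spread. In the females the order was another one, and *Serpina3g* led at 3.17 ± 0.506 CPM per kb (SD, n = 4). *Serpina3n* followed at 1.19 ± 1.29 and *Serpina3c* at 0.935 ± 0.337 CPM per kb, a step within the spread of *Serpina3n*. Without female replicate 1, a setting added after seeing the data, the order of the pair turned, with *Serpina3n* at 0.557 ± 0.280 and *Serpina3c* at 0.931 ± 0.413 CPM per kb (SD, n = 3). Then came *Serpina3f* at 0.409 ± 0.147 and *Serpina3h* at 0.318 ± 0.301 CPM per kb, which did not differ beyond their spread, and the other members were at or below 0.0491 CPM per kb.

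The difference between the sexes was recomputed under 15 other settings. For *Serpina3c* the log2 fold change was between 4.55 and 5.07, and for the summed counts between 2.43 and 2.88. For *Serpina3n* it was between 1.30 and 2.98, and for *Serpina3g* between 0.48 and 0.83. In no setting did any of these fall to 0 or change sign.

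**Figure D4:**
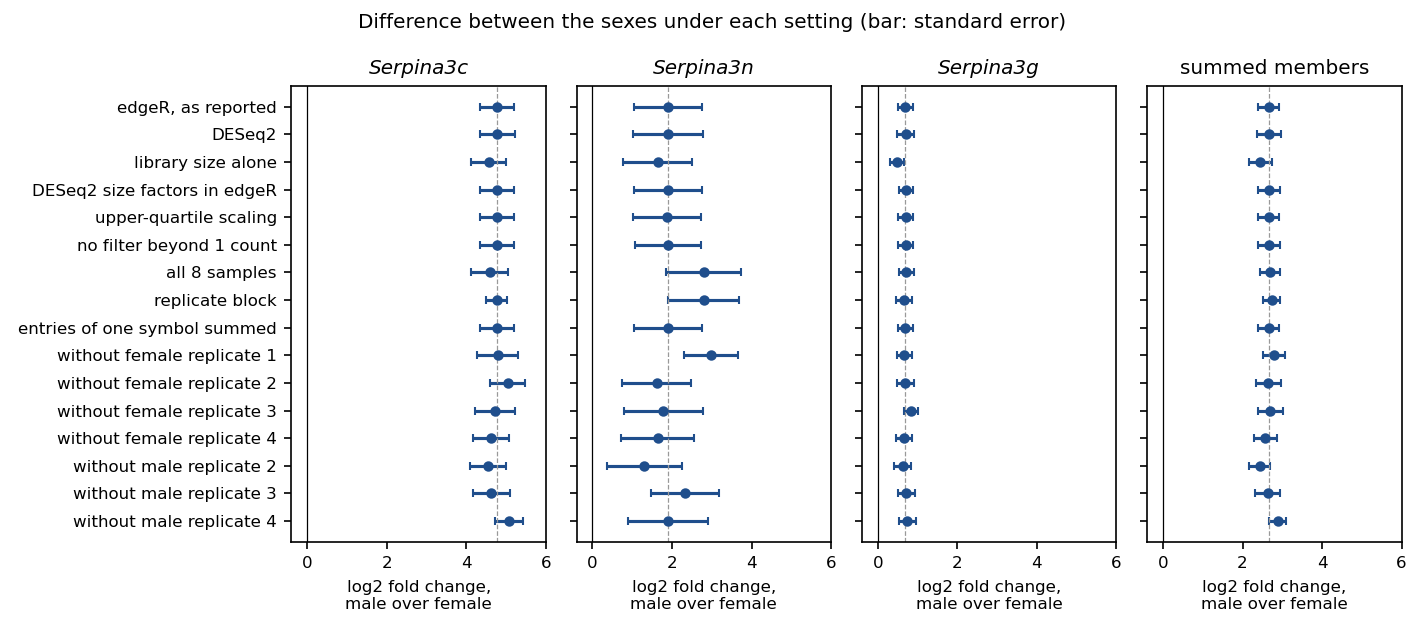
Points give the log2 fold change, male over female, of *Serpina3c*, *Serpina3n*, *Serpina3g* and the summed members as reported (dashed line) and under each of the 15 other settings, with the standard error as a bar. The points for *Serpina3c* stay between 4.55 and 5.07, and those for *Serpina3n* spread from 1.30 to 2.98.

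The start regions of the members were examined because neighbouring copies can share regulatory sequence. Promoter windows of RefSeq on GRCm38.p6, from 250 bases before to 50 bases after a gene's start, were found for 5 of the 8 members, namely *Serpina3c*, *Serpina3f*, *Serpina3g*, *Serpina3i* and *Serpina3n*. The windows of *Serpina3c* and *Serpina3n* were identical at 275 of 294 aligned bases, or 93.5%, although the genes lie at opposite ends of the members' span and on opposite strands. The window of *Serpina3c* was 66.2% identical to that of *Serpina3g* and 70.1% identical to that of *Serpina3i*. The upstream parts of the closest pair are shown, 5′ to 3′ on the strand of each gene, for *Serpina3c* from chr12:104153930-104154122 on the minus strand and for *Serpina3n* from chr12:104406458-104406645 on the plus strand. Capitals mark bases that differ between the pair, and also the first 3 bases of *Serpina3c*, which have no aligned base in the other window. The last 2 printed bases of *Serpina3c* have no counterpart in the printed stretch of *Serpina3n*.
Serpina3c: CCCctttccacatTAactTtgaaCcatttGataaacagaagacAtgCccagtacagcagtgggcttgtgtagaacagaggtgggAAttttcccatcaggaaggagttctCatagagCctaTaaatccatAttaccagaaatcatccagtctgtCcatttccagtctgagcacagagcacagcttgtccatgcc
Serpina3n: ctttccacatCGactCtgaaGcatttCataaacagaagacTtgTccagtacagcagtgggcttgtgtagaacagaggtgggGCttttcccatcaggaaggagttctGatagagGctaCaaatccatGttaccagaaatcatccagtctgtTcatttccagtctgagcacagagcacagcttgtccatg
Most of the differences were single bases spread along the sequence.

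Motifs were counted on both strands of these windows. ACANNNTGT, the spacing of a steroid receptor element, was found in 4 of the 5 members, in each as acagcttgt, at −73 for *Serpina3c*, −76 for *Serpina3n* and −55 for *Serpina3i* relative to the RefSeq start, and at −83 and −172 for *Serpina3f* in its 2 windows. It was present in 6.85% of 32851 promoter windows of the same length. TTCNNNGAA, a STAT element, was found in *Serpina3f*, *Serpina3g* and *Serpina3i*, and in 8.30% of all windows. Neither CAAGGNCA, an NR5A1 element (6.71% of all windows), nor GGGANTTCC, an NF-kappa-B element (1.68%), was found in the 5 members. The copies share ancestry, so matches in several of them are not independent, and a match is a run of letters only.

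To place the members among other genes, Pearson correlations of log2(CPM + 1) over the 8 samples were computed with 13971 genes of at least 1 CPM on average. They are descriptions over samples that share the split by sex. The genes most like *Serpina3c* were *Gla* (r = 0.993), which encodes lysosomal alpha-galactosidase A, *Serpinb1a* (r = 0.989), *Plpp4* (r = 0.988), *Cntnap4* (r = 0.986) and *Colec12* (r = 0.984). All 5 had a higher mean in male replicates 2 to 4 than in females, with male replicate 1 in between, as for *Cntnap4* at 13.5 CPM in male replicates 2 to 4, 5.81 CPM in male replicate 1 and 0.138 CPM in females. The genes most like *Serpina3n* were *Necap2* (r = 0.971), *Myom1* (r = 0.963), *Adora1* (r = 0.955), *Osbpl3* (r = 0.953) and *Rrp9* (r = 0.948), each of which was highest in male replicate 1. For *Serpina3g* they were *Ssh2* (r = 0.973), *Hmgb2* (r = 0.969), *Chac1* (r = 0.965), *Shisa9* (r = 0.963) and *Arhgef26* (r = 0.959). For *Serpina3f* they were *Zfp704* (r = 0.964), *Pappa* (r = 0.952), *Ppil3* (r = 0.930), *Arsa* (r = 0.914) and *Slc37a4* (r = 0.912). No gene was named for more than 1 member.

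**Figure D5:**
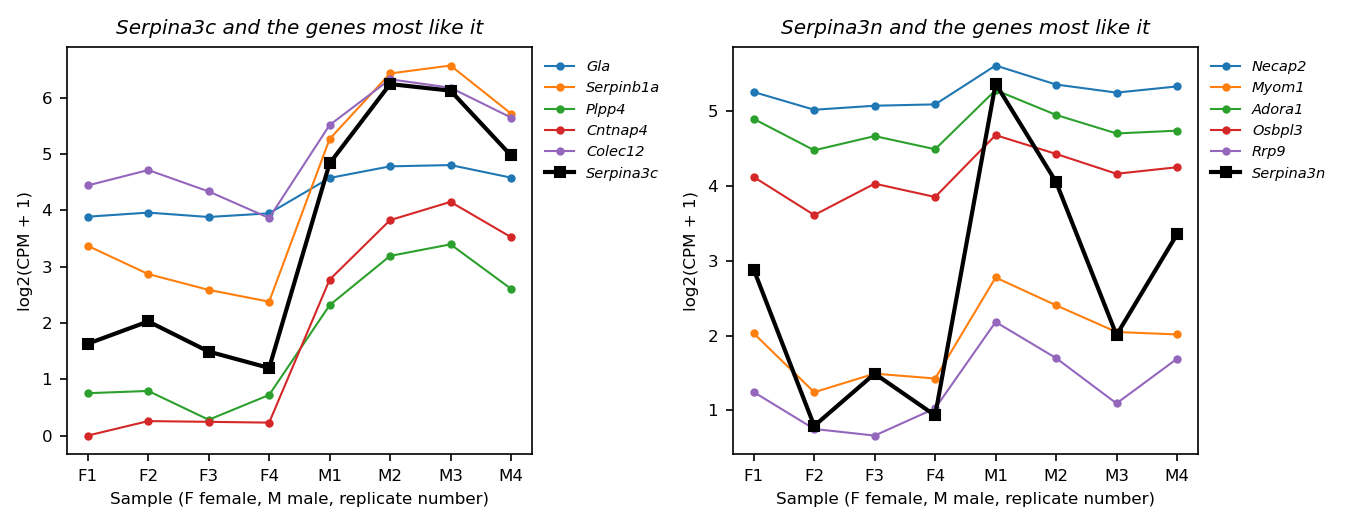
Lines give log2(CPM + 1) of *Serpina3c* (left) and *Serpina3n* (right) in black with the 5 genes most correlated with each, across female (F) and male (M) samples by replicate number. The lines only join values of the same gene, and male replicate 1 (M1) lies between the females and the other males on the left and is the highest sample on the right.

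Genes related to the members were then examined in the same edgeR test, adjusted over all 20152 genes, of which 2.34% were called. Of 18 other clade A serpins, none passed the filter on low counts and 12 had 0 counts in all 8 samples. *Serpina3j*, one of the 18, lies inside the cluster. It had 0 counts in the females and in male replicate 1 and 22, 17 and 8 counts in male replicates 2 to 4. *Serpina7*, thyroxine-binding globulin, likewise had 0 counts in the females and in male replicate 1 and 17, 5 and 18 counts in male replicates 2 to 4. Of 38 serpins of other clades, 16 were tested and 1, *Serpinb1a*, was called. *Serpinb1a*, an intracellular inhibitor of leukocyte elastase and cathepsin G, was 9.32, 6.29, 5.0 and 4.19 CPM in the females, 85.0, 93.9 and 51.5 CPM in male replicates 2 to 4, with 37.4 CPM in male replicate 1. Its log2 fold change was 3.60 with a standard error of 0.34 and an edgeR adjusted p of 0.0100. *Serpine2*, the most abundant of these serpins, was 1152 ± 365 CPM (SD, n = 3) in males and 279 ± 193 CPM (SD, n = 4) in females and was not called (edgeR adjusted p = 0.125).

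Among 32 proteases of the families that these serpins are known to inhibit, 14 were tested and 2 were called, in opposite directions. Both calls were lost whichever sample was left out. The lysosomal cathepsin gene *Ctsl* was higher in males, at 115 ± 10.3 against 63.5 ± 9.29 CPM, with a log2 fold change of 0.83, a standard error of 0.16 and an edgeR adjusted p of 0.0494. In male replicate 1 *Ctsl* was 56.4 CPM, inside the female range. *Prtn3*, a protease of neutrophil granules, had 28 to 33 counts in each female, 0 in male replicates 2 to 4, with 6 in male replicate 1. Measured against a floor of 3 counts per library, it was at least 10.5-fold lower in male replicates 2 to 4 than in females (edgeR adjusted p = 0.0311). The most abundant protease of the list, *Ctsb*, did not pass (log2 fold change 0.17, standard error 0.15).

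Serpins of this cluster are acute phase genes in liver, so 39 genes of the cytokine, interferon and acute phase responses were examined, of which 28 were tested and 2 were called. *Il6st*, the signalling chain of the interleukin-6 receptor family, was between 425 and 745 CPM in the females, between 80.9 and 144.8 CPM in male replicates 2 to 4, with 115.8 CPM in male replicate 1. Its log2 fold change was −2.55 with a standard error of 0.29 and an edgeR adjusted p of 0.0161. The acute phase gene *Lcn2*, lipocalin 2, was between 3.71 and 12.1 CPM in the females and 34.4, 27.3 and 36.3 CPM in male replicates 2 to 4. Like *Serpina3n*, it was highest in male replicate 1, at 62.5 CPM, and its log2 fold change was 2.13 with a standard error of 0.37 and an edgeR adjusted p of 0.0417.

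Of 13 genes of the glucocorticoid response, all were tested and 1 was called. *Tsc22d3*, which encodes the glucocorticoid-induced leucine zipper protein, was between 147 and 187 CPM in the females and between 320 and 393 CPM in male replicates 2 to 4, with a log2 fold change of 1.13, a standard error of 0.14 and an edgeR adjusted p of 0.0201. In male replicate 1 it was 2.14 CPM, far below every other sample.

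Among 36 protein-coding genes within 1 Mb of the cluster, 14 were tested and 1 was called, in the direction opposite to that of *Serpina3c*. The interferon-inducible gene *Ifi27l2a* was between 8.17 and 15.9 CPM in the females, 2.36, 2.79 and 3.54 CPM in male replicates 2 to 4, with 9.74 CPM in male replicate 1. Its log2 fold change was −2.06 with a standard error of 0.29 and an edgeR adjusted p of 0.0279. The median log2 fold change of the flanking genes tested was −0.30. Thus 1 of 14 flanking genes was called, beside 2.34% of all genes.

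Across the related and flanking lists, the calls depended on the settings to different degrees. *Serpinb1a* passed in 14 of 15 other settings, *Il6st* in 13, *Tsc22d3* in 10, *Ifi27l2a* in 8, *Lcn2* and *Prtn3* in 6 each and *Ctsl* in 4. *Il6st* no longer passed without male replicate 2 (edgeR adjusted p = 0.0642). *Tsc22d3* no longer passed without female replicate 2 (0.0561), male replicate 2 (0.0713) or male replicate 4 (0.0526), or with male replicate 1 included (edgeR adjusted p = 0.880). *Ifi27l2a* lost its call when female replicate 2 or 3 or male replicate 2, 3 or 4 was left out, and *Lcn2* when any sample but female replicate 1 was. *Prtn3* and *Ctsl* lost theirs whichever sample was left out.

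Some cell type markers moved with the sexes, and their part in the values of the members was not tested. The summed level of 5 gonadotrope markers was between 67930 and 75717 CPM in male replicates 2 to 4, between 21488 and 34863 CPM in the females and 28423 CPM in male replicate 1, and 1 of the 5, *Fshb*, was called. Most of this sum was *Cga* and *Fshb*, while *Lhb*, *Cga* and *Gnrhr* overlapped between the sexes and *Nr5a1*, at 716 against 1068 CPM, was higher in each female than in any male. The sum of 9 markers of other hormone cells was from 93878 to 187017 CPM in those males and from 36435 to 98163 CPM in females, and *Pou1f1* was called. The largest part of it was *Gh*, at 94908 against 42237 CPM on average. Of the 9 markers, 4 were higher in each of these males than in any female, namely *Gh*, *Tshb*, *Trhr* and *Pou1f1*. That separation held for 11.5% of all genes tested. The others overlapped, and *Crhr1* had a lower mean in males. For 5 stem and folliculostellate markers the summed ranges were 778 to 1096 CPM and 764 to 1184 CPM. Most of this sum was *Cyp2f2*, at 756 CPM in males and 635 CPM in females on average, and the other 4 markers had a lower mean in males. Of these, *Sox9* was called, and *Sox2*, at 34.6 against 60.4 CPM, did not overlap between the sexes and was not called (edgeR adjusted p = 0.0748). The sums of endothelial, stromal, and macrophage and leukocyte markers overlapped between the sexes, and none of their 16 genes was called. The stromal genes *Col1a1*, at 3.65 against 8.52 CPM, and *Col3a1*, at 3.10 against 8.29 CPM, were nevertheless lower in each of these males than in any female. Such a separation, with females higher, held for 10.8% of all genes tested. The macrophage and leukocyte sum, of interest for *Serpina3g*, was 47.8 to 93.5 CPM in male replicates 2 to 4 and 28.0 to 83.3 CPM in the females, and 41.4 CPM in male replicate 1. Pituicyte and astroglial markers summed to 47.7 to 59.8 CPM in these males, and the sum was higher in each female, at 64.9 to 95 CPM. Its largest parts were *Aqp4* and *Slc1a3*. Of the 5 markers, only *Aqp4* was higher in each female than in any of these males. The others overlapped, *Rax* had a higher mean in males, and none of the 5 was called. Erythroid markers summed to 81.2 to 222 CPM in the same males and 184 to 580 CPM in the females. In male replicate 1, where *Serpina3n* was highest, the endothelial sum was the highest of the 8 samples at 689 CPM, although *Emcn*, one of its 5 markers, was the lowest of the 8 there at 17.4 CPM. The pituicyte and astroglial sum was 56.8 CPM, inside the range of the other males.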

How the data were processed

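RNA of EGFP-expressing pituitary gonadotropes from 4 female and 4 male samples of Ad4BP-BAC-EGFP mice was measured by RNA sequencing. The authors deposited unnormalized counts per gene. The paper names cutadapt, STAR on mm10 (GRCm38) and featureCounts with default parameters, and the annotation is not given in the sources used here. Of the 8 members, 5 are entries of assembled loci and 3 of Ensembl genes. The paper describes no step that assembles loci, so how these counts were made is not fully known.

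The members, the gene lists and the comparison were chosen with earlier results of these data known, and the flanking genes, motifs and loop stretch after seeing the values. Named genes are the members, the called genes of each list, *Serpine2* and *Ctsb* as the most abundant genes of their lists and *Serpina3j* and *Serpina7* as those of a list with no call, and the 5 most correlated genes of each member of at least 1 CPM.

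CPM used TMM factors over 8 samples. Male replicates 2 to 4 were compared with the females by the quasi-likelihood test of edgeR 4.0.16 (R 4.3.3) after filterByExpr, with Benjamini-Hochberg adjustment over all genes and a threshold of 0.05. The standard error is the log2 fold change divided by the square root of F. The test was checked on simulated counts. Other settings were DESeq2 1.42.0, other scalings, no filter, all 8 samples, a replicate block, entries summed by symbol, and each sample left out. Exact binomial intervals used scipy 1.17.1, and mafft 7.526 aligned GENCODE M21 and RefSeq sequences.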

Additional observations from a re-analysis of the deposited data

Results flagged for a closer look

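Samples far from the others of their group were looked for in 34 groups of 4 samples with a spread, and 7 were found. For continuous values chance gives about 1 in 20 groups, but 5 of the 7 are genes with counts in a single sample of the group, which meet the criterion by construction, so the number found is not read against chance. Of the 7, 3 concern members, all in female replicate 3. *Serpina3g* was 8.26 CPM there against 6.01 to 6.29 CPM in the other females. *Serpina3i* was 0.153 CPM and *Serpina3m* 0.338 CPM in the same sample, with 0 counts in the other females. In male replicate 1, *Serpina16* was 0.960 CPM and *Prtn3* 0.262 CPM, with 0 counts of both in the other males, and *Ifi27l2a* was 9.74 CPM against 2.36 to 3.54 CPM. *Serpina9* was 0.476 CPM in female replicate 4 and had 0 counts in the other females.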

How the results depend on the processing

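No difference of a member between the sexes reversed in the settings run. The number of genes called, 471, was 2329 with DESeq2, 808 with library size alone, of which 16.5% were higher in males against 42.0%, 177 with no filter beyond 1 count, 67 with all 8 samples and 88 to 171 with a sample left out. The number of members called, 1, was 2 with DESeq2, *Serpina3c* and *Serpina3g*, and 1 with each sample left out. The number of related genes called, 6, was 18 with DESeq2, 2 with all 8 samples and 1 to 5 with a sample left out. The log2 fold change of *Serpina3n* was between 1.30 and 2.98 with a sample left out. That of *Serpina3h* was 0.46 without male replicate 2 and 2.11 without female replicate 4. The labels do not say whether replicate numbers pair the samples. Deviations of same-numbered males and females correlated at −0.0193, −0.0082 and −0.0008, and those of other pairs at −0.041 to 0.049. No pairing by number was seen in these values, which could miss a weak one. With a replicate block, edgeR called 0 genes, 0 members and 0 related genes (2954 genes at an unadjusted p under 0.05, against 4009 without the block), and the log2 fold change was 4.76 for *Serpina3c*, 2.80 for *Serpina3n* and 0.09 for *Serpina3h*. In this fit, replicate number 1 held female replicate 1 alone, so that sample did not inform the difference between the sexes. The block also left fewer degrees of freedom for the test. How much each adds to these shifts was not tested. *Serpina3h*, *Serpina3i* and *Serpina3m* had at most 62 counts in a sample, and differences at such counts are imprecise.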
